A study of Homo sapiens with 6 samples.

Results

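Amino acid transporter genes were followed in LNCaP, a human prostate cancer line that responds to androgen, after white button mushroom (WBM) extract. The members were all genes of the deposited count table whose symbol belongs to the solute carrier families SLC1A, SLC3A, SLC7A, SLC36A, SLC38A or SLC43A. This gave 44 of 23354 genes, and 27 of them had enough reads to be tested among 13466 tested genes. The 44 include SLC7A6OS, the antisense gene SLC7A11-AS1 and the pseudogenes SLC7A5P1 and SLC7A5P2, which are no transporters and match by symbol alone.

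In one group the cells received 1 nM dihydrotestosterone (DHT) together with WBM extract at 3 µL/mL for 48 h (DHT+WBM, 3 libraries). The other group received DHT at the same dose and for the same time (DHT, 3 libraries). Every library therefore carried the androgen, and whether the DHT cells got a vehicle in place of the extract is not stated in the labels. The labels name triplicates without saying that these were separate cultures, so a p-value here speaks for the variation among these libraries alone, which could be technical. Each library held 19127357 to 21490953 counts, and the members took 0.294 to 0.304% of them in DHT+WBM and 0.310 to 0.331% in DHT. Prostate markers were abundant, with a summed level of 4887 to 4974 normalised CPM (counts scaled to library size) over 12 genes in DHT+WBM and 7120 to 7338 CPM in DHT. Of 9 leukocyte markers the sum was 85.7 to 93.7 CPM in DHT+WBM and 24.4 to 26.7 CPM in DHT, mostly CD68, a lysosomal gene, at 84.5 CPM in DHT+WBM and 23.0 CPM in DHT. All 3 leukocyte markers with enough reads to be tested rose, ITGAM being at 1.41 CPM in DHT+WBM and 0.636 CPM in DHT and LYZ at 2.86 CPM in DHT+WBM and 2.10 CPM in DHT. The pan-leukocyte gene PTPRC was at 0.0325 CPM in DHT+WBM and 0.0163 CPM in DHT, and MS4A1 was at 0 in every library. Fibroblast markers summed to 15.1 to 15.7 CPM over 8 genes in DHT+WBM and 15.3 to 17.6 CPM in DHT, with COL1A2 at 0, and endothelial markers to 2.21 to 2.39 CPM over 5 genes in DHT+WBM and 2.42 to 3.32 CPM in DHT, with CDH5 at 0. The part of these markers in the results was not tested.

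Cells take up amino acids through families of carriers with overlapping substrates. Sodium-dependent carriers such as SLC38A1, SLC38A2 and the exchanger SLC1A5 bring in glutamine and other small neutral amino acids. Exchangers such as SLC7A5 trade these for leucine and other essential amino acids, and several SLC7 proteins reach the plasma membrane only as light chains bound to the heavy chain SLC3A2. In prostate cancer cells the uniporter SLC43A1 and the exchanger SLC7A5 are known leucine carriers, and SLC43A1 is known as an androgen-responsive gene.

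With the extract, SLC1A5, SLC38A4, SLC1A4, SLC7A5 and SLC7A1 fell most among the members, while the glutamate carriers SLC1A1, SLC1A2 and SLC1A3 and the carrier SLC36A4 rose most among members with a mean above 5 CPM in at least one group, a level that SLC1A2 had in DHT+WBM alone. The cystine carrier SLC7A11 and the most abundant member, SLC38A2, did not pass the test. In edgeR's quasi-likelihood test, adjusted by Benjamini-Hochberg over all tested genes, 7 members rose, 10 fell and 10 did not pass an adjusted p of 0.05. The 17 calls make 63.0% of the tested members, and the same test called 58.2% of all tested genes, 29.2% higher and 29.0% lower, so the share of members called stands near the background. A call with a log2 fold change of at least 0.3 in either direction was made for 11 of the 27 members and for 32.2% of all tested genes. The 3 libraries of one group lay entirely above those of the other in 19 of 27 members, against 62.2% of all tested genes. The median log2 fold change of the tested members was 0.00, and that of all tested genes was also 0.00, with members ranging from -0.85 to 1.25.

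**Figure D1:**
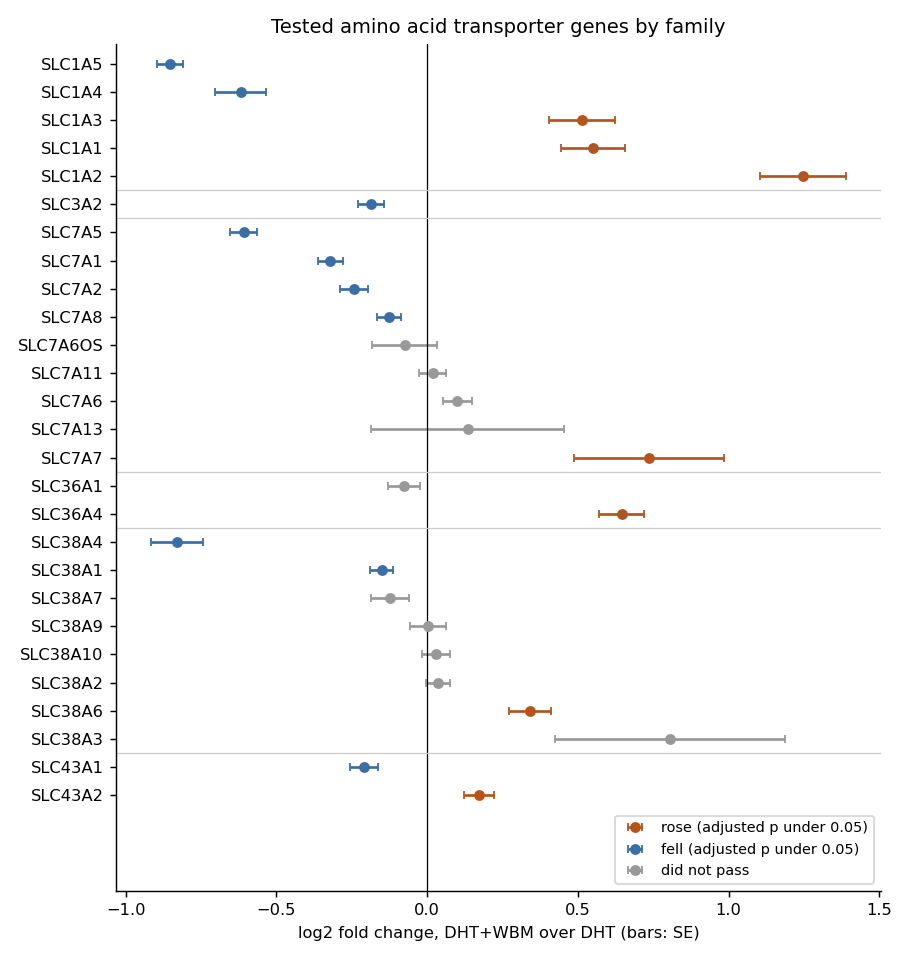
Log2 fold change (x axis, DHT+WBM over DHT, bars are SE) of the 27 tested members, grouped by family from SLC1 at the top to SLC43 at the bottom. SLC1 genes lie on both sides of 0, from -0.85 for SLC1A5 to 1.25 for SLC1A2, while SLC7A11 and SLC38A9 sit at 0.02 and 0.00.

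Some members carry, close to a transcription start, the core of the C/EBP-ATF response element, to which the stress factor ATF4 binds at known amino acid response genes. These stretches are shown because SLC1A5, SLC1A4, SLC3A2 and SLC7A1 are among the genes the results turn on, a choice made with the fold changes known. The core TGATGNAA was searched on both strands in RefSeq promoter windows of GRCh38.p14, from 250 bases before to 50 bases after each start. Of the 22 tested members with a window, 6 held it, against 2.74% of the 10304 tested genes with a window. The 22 members had 43 windows in all, and 2.01% of the 15092 windows of tested genes held the core. Capitals mark the core, each stretch is 30 bases long and reads 5′ to 3′ on the gene's strand, and SLC1A4 and SLC3A2 hold the core as its reverse complement.
SLC1A5 (chr19:46784893-46784922, minus strand): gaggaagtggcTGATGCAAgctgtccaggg
SLC1A4 (chr2:64989381-64989410, plus strand): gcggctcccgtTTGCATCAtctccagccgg
SLC3A2 (chr11:62881719-62881748, plus strand): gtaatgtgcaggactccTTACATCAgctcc
SLC7A1 (chr13:29595663-29595692, minus strand): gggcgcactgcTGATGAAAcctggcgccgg
SLC38A1 (chr12:46266502-46266531, minus strand): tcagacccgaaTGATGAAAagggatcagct
SLC1A3 (chr5:36596357-36596386, plus strand): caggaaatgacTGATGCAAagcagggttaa
All of these genes but SLC7A1 have several annotated starts, and the core was in the window of one of them. In SLC1A5 it lay 97 bases before the most downstream of its starts, and the windows of the upstream starts held none. The cores of SLC3A2 and SLC7A1 begin after the start, at bases 38 and 8. The first 5 genes fell with the extract and SLC1A3 rose. Of all 27 tested members, those without a window included, 10 fell, as did 29.0% of all tested genes. The direction of the other genes that hold the core was not looked at. Whether the core goes with a fall was not tested. SLC38A4, SLC43A1, SLC7A8 and SLC7A5, which fell too, held no such core in their windows, and SLC7A2, which also fell, had no window. SLC1A1, SLC36A4, SLC38A6, SLC43A2 and SLC7A7, which rose, held none in their windows either, and SLC1A2, which also rose, had no window. SLC38A2, which did not pass the test, held none in its window, and SLC7A11, which did not pass either, had no window. Sequence outside the windows was not searched, so a core elsewhere in these genes would be missed. The match is a description of letters and shows no binding.

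The region before the start of SLC7A5 is printed with that of SLC7A1 because these are the SLC7 genes that fell most. Both runs cover the 250 bases before the start on the minus strand, and capitals mark matches on either strand to 3 further cores, the E-box CACGTG, the aryl hydrocarbon receptor core GCGTG and the antioxidant response element core TGACNNNGC.
SLC7A5 (chr16:87869508-87869757): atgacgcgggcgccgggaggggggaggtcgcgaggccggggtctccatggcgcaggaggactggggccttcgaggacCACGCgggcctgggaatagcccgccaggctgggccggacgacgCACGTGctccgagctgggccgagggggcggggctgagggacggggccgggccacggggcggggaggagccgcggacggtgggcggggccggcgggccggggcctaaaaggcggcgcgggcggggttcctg
SLC7A1 (chr13:29595689-29595938): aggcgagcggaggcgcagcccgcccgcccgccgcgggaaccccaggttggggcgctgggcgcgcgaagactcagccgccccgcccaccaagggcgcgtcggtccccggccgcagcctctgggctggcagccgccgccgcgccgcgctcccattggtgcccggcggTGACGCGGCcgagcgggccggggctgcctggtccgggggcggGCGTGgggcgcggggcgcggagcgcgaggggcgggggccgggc
The E-box was found in windows of 7 of the 22 members and of 12.8% of all tested genes with a window. The aryl hydrocarbon receptor core was in 18 of the 22 members and in 58.5% of genes. The antioxidant core was in 7 of the 22 members and in 19.7% of genes, SLC7A5 and SLC7A1 included, where that of SLC7A5 lies outside the printed run. These shares are per gene, and a gene with more windows has more places for a match. The 22 members had 43 windows, and the 10304 tested genes had 15092. Of those 15092 windows, 9.40% held the E-box, 48.2% the aryl hydrocarbon receptor core and 14.7% the antioxidant core. Whether members differ from other genes in these cores was not tested. Matches of one core can overlap those of another.

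Among the SLC1 genes, the carriers of neutral amino acids were lower with the extract and the carriers of acidic amino acids were higher. SLC1A5 (chromosome 19, 47278140 to 47291842, minus strand, hg19) encodes ASCT2, a sodium-dependent exchanger known as a main entry route for glutamine in many cancer cells. It had 64.5, 65.1 and 66.4 CPM in the DHT+WBM libraries, against 121, 115 and 118 CPM in the DHT libraries. All DHT+WBM libraries lay far below all DHT libraries, and the log2 fold change was -0.85 ± 0.04 (SE, adjusted p = 2.33e-19, edgeR), 1.81-fold lower. SLC1A4 (chromosome 2, 65215579 to 65251000, plus strand) encodes ASCT1, an exchanger of alanine, serine and cysteine. SLC1A4 had 9.36, 10.7 and 9.39 CPM in DHT+WBM, against 15.9, 14.8 and 14.5 CPM in DHT. These groups did not overlap either, with a log2 fold change of -0.62 ± 0.08 (adjusted p = 7.55e-08, edgeR).

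SLC1A1, SLC1A2 and SLC1A3 encode high-affinity uptake carriers for glutamate and aspartate, best known from the nervous system. SLC1A2 (chromosome 11, 35272752 to 35441610, minus strand) had 6.29, 6.01 and 5.76 CPM in DHT+WBM, against 2.20, 3.12 and 2.29 CPM in DHT. All DHT+WBM libraries were above all DHT libraries, and the log2 fold change of 1.25 ± 0.14 (adjusted p = 1.30e-09, edgeR), 2.37-fold higher, was the largest rise among the 27 tested members. It rested on 129, 117 and 125 counts in DHT+WBM and 46, 62 and 47 counts in DHT. SLC1A1 (chromosome 9, 4490427 to 4587469, plus strand) had 8.77, 8.88 and 7.64 CPM in DHT+WBM, against 5.78, 6.04 and 5.41 CPM in DHT. Its groups stood apart, with a log2 fold change of 0.55 ± 0.11 (adjusted p = 3.19e-05, edgeR), although its span overlaps SPATA6L on the other strand, a gene with a mean of 0.900 CPM. SLC1A3 (chromosome 5, 36606457 to 36688436, plus strand) had 7.60, 8.63 and 8.98 CPM in DHT+WBM, against 6.59, 5.49 and 5.56 CPM in DHT. The lowest DHT+WBM library was above the highest DHT library, with a log2 fold change of 0.51 ± 0.11 (adjusted p = 1.08e-04, edgeR).

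The neutral carriers were much the more abundant per length of gene. Per kb of the deposited gene length, the summed level of SLC1A4 and SLC1A5 was 21.5 ± 0.31 CPM per kb in DHT+WBM and 38.4 ± 1.05 CPM per kb in DHT (SD, n = 3 each). The summed level of SLC1A1, SLC1A2 and SLC1A3 was 4.48 ± 0.15 CPM per kb in DHT+WBM and 2.96 ± 0.16 CPM per kb in DHT. This split into neutral and acidic carriers was made after their values were seen and is given without a test. Over the 5 tested SLC1 genes together the level was 26.0 ± 0.33 CPM per kb in DHT+WBM and 41.4 ± 1.10 CPM per kb in DHT. That is a ratio of 0.628, with an exact permutation p of 0.1 (two-sided), which is the smallest that 3 against 3 libraries can give. Without SLC1A5, the most abundant of them, the ratio was 1.14, so the lower family sum rested on that gene. In bulk RNA, fewer cells of a kind and less RNA per cell cannot be told apart. The other SLC1 genes, SLC1A6 and SLC1A7, had 0 to 3 counts per library and were not tested.

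**Figure D2:**
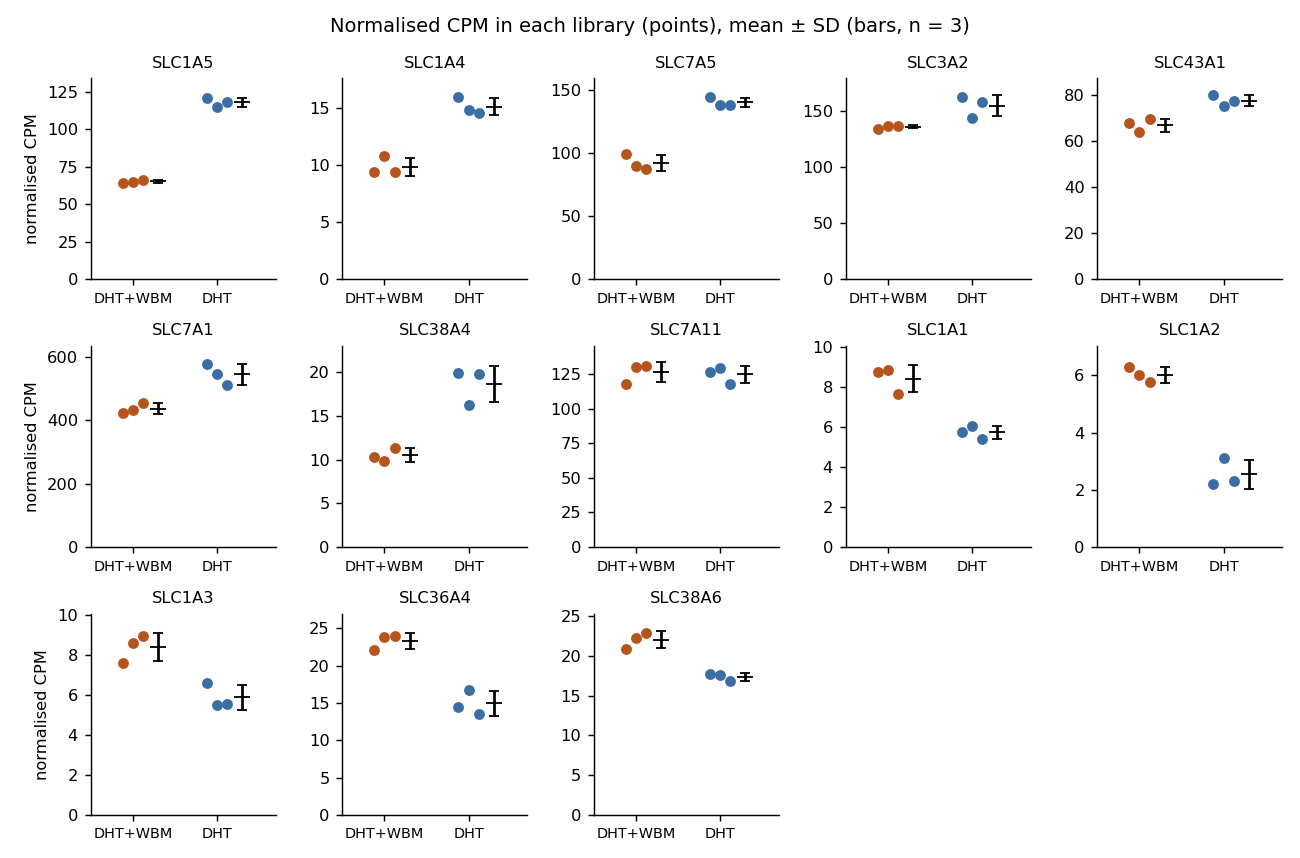
Normalised CPM (y axis, from 0) of 13 members in each of the 3 DHT+WBM libraries (orange, left) and 3 DHT libraries (blue, right), with mean ± SD as black bars. SLC1A5 sits at 64.5 to 66.4 CPM in DHT+WBM and at 115 to 121 CPM in DHT, while the points of SLC7A11 overlap between the groups.

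SLC3A2 and its light chains form the heteromeric exchangers. SLC3A2 (chromosome 11, 62623484 to 62656355, plus strand) encodes the heavy chain, a glycoprotein also called CD98 that carries its partners to the membrane. SLC3A2 had 134, 137 and 137 CPM in DHT+WBM, against 162, 144 and 158 CPM in DHT. The groups did not overlap, the DHT libraries were more spread, and the fall was small, with a log2 fold change of -0.19 ± 0.04 (adjusted p = 2.89e-04, edgeR). SLC7A5 (chromosome 16, 87863629 to 87903100, minus strand) encodes LAT1, which exchanges leucine, tryptophan and other large neutral amino acids. SLC7A5 had 99.2, 89.4 and 87.1 CPM in DHT+WBM, against 144, 138 and 138 CPM in DHT. All DHT+WBM libraries lay below all DHT libraries, with a log2 fold change of -0.61 ± 0.05 (adjusted p = 1.66e-14, edgeR), 1.52-fold lower. Reads of SLC7A5 could in part be credited to its pseudogenes SLC7A5P1 and SLC7A5P2, which held 0 to 2 counts per library.

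SLC7A11 (chromosome 4, 139085248 to 139163503, minus strand) encodes xCT, which brings in cystine in exchange for glutamate and so feeds glutathione synthesis. SLC7A11 had 118, 130.3 and 130.4 CPM in DHT+WBM, against 127, 129 and 118 CPM in DHT. The libraries of the groups overlapped, and the log2 fold change of 0.02 ± 0.04 (adjusted p = 0.751, edgeR) had a 95% interval of -0.07 to 0.11. The antisense gene SLC7A11-AS1, which overlaps it, had 0 counts in every DHT+WBM library and 0 or 1 count in the DHT libraries. Among the genes of glutathione synthesis, GCLM, the modifier subunit of glutamate-cysteine ligase, was at 208 ± 6.50 CPM in DHT+WBM and 71.4 ± 4.70 CPM in DHT, a log2 fold change of 1.54 ± 0.05 (SE, adjusted p = 5.66e-27, edgeR).

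The remaining light chains were SLC7A8, SLC7A6, SLC7A7 and SLC7A10. SLC7A8, which encodes LAT2, a carrier of large and small neutral amino acids, fell to 123 ± 2.57 CPM in DHT+WBM, against 134 ± 1.704 CPM in DHT, a log2 fold change of -0.13 (adjusted p = 0.00742, edgeR). Scaled by library totals alone, SLC7A8 did not pass the test, with -0.08 (adjusted p = 0.0866, edgeR). SLC7A6, which encodes y+LAT2, an exchanger of cationic for neutral amino acids, was at 84.5 ± 1.45 CPM in DHT+WBM and 78.9 ± 5.68 CPM in DHT, a log2 fold change of 0.10 that did not pass (adjusted p = 0.0699, edgeR). Its span overlaps SLC7A6OS on the other strand, which was at 6.85 ± 0.60 CPM in DHT+WBM and 7.23 ± 0.65 CPM in DHT and did not pass either. SLC7A7, which encodes y+LAT1, rose from a low level, to 1.44 ± 0.08 CPM in DHT+WBM, against 0.862 ± 0.16 CPM in DHT (log2 fold change 0.73 ± 0.25, adjusted p = 0.0113, edgeR). By DESeq2 its adjusted p was 0.0735. SLC7A10, the light chain for alanine, serine and cysteine, had 0 or 1 count per library.

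The makeup of the light chains is given by shares, without a test. As a share of the summed level per kb of the 6 light chain genes, SLC7A5 made up 30.6, 28.0 and 27.7% in the DHT+WBM libraries, against 37.9, 37.0 and 38.2% in the DHT libraries. SLC7A8 made up 33.7, 33.2 and 33.3% in DHT+WBM, against 31.0, 30.8 and 32.1% in DHT. SLC7A8 was the largest share in each DHT+WBM library and SLC7A5 in each DHT library. SLC7A11 held 18.6 ± 1.31% in DHT+WBM and 15.8 ± 0.52% in DHT, and SLC7A6 held 18.6 ± 0.51% in DHT+WBM and 14.9 ± 0.76% in DHT. Shares add to a whole, so a lower share of one gene raises the others. The level of SLC3A2 was 0.741 ± 0.02 of the summed light chains per kb in DHT+WBM and 0.725 ± 0.05 in DHT (SD, n = 3 each), with an exact permutation p of 0.7 (two-sided). The heavy chain SLC3A1, which pairs with SLC7A9 and SLC7A13 in kidney, had 0 to 6 counts per library, and its span overlaps PREPL at a mean of 173 CPM. SLC7A9 had 0 or 1 count, and SLC7A13 was at 0.679 ± 0.06 CPM in DHT+WBM and 0.618 ± 0.13 CPM in DHT and did not pass the test.

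**Figure D3:**
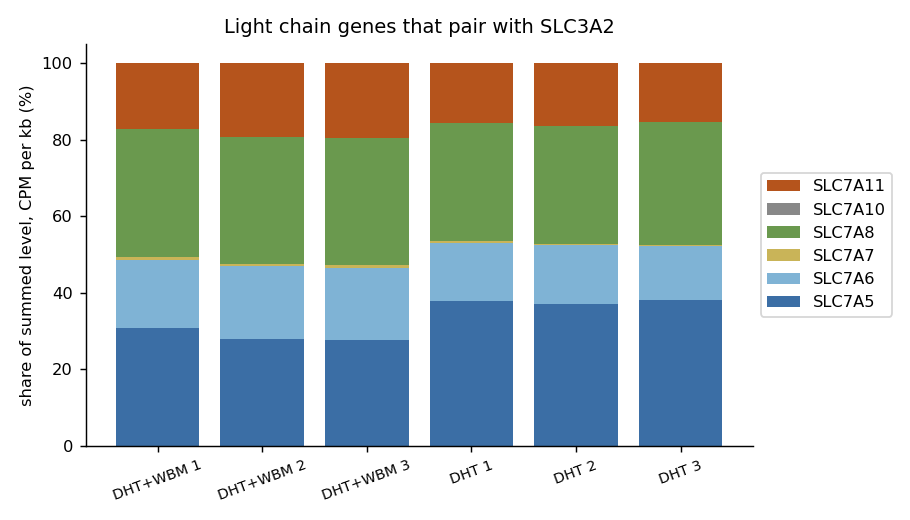
Share (y axis, %) of each of the 6 light chain genes in their summed level, in CPM per kb, for the 3 DHT+WBM libraries (left) and the 3 DHT libraries (right). SLC7A5 takes 27.7 to 30.6% in DHT+WBM and 37.0 to 38.2% in DHT, and SLC7A10 is too rare to be visible.

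The cationic carriers SLC7A1, SLC7A2 and SLC7A3 take up arginine, lysine and ornithine and need no heavy chain. SLC7A1 (chromosome 13, 30083551 to 30169825, minus strand) encodes CAT1 and was the most abundant SLC7 gene. SLC7A1 had 422, 434 and 455 CPM in DHT+WBM, against 579, 548 and 513 CPM in DHT. The highest DHT+WBM library stayed below the lowest DHT library, with a log2 fold change of -0.32 ± 0.04 (adjusted p = 2.04e-08, edgeR). SLC7A2, which encodes CAT2, fell as well, to 117 ± 5.93 CPM in DHT+WBM, against 138 ± 10.3 CPM in DHT, a log2 fold change of -0.24 ± 0.05 (adjusted p = 3.28e-05, edgeR). SLC7A3 had 0 counts in all libraries. Of the other genes of the family, SLC7A4 had 0 counts in all libraries and SLC7A14 had 0 or 1 count. Over the tested SLC7 carriers together, SLC7A6OS left out, the level was 145 ± 1.97 CPM per kb in DHT+WBM and 174 ± 7.59 CPM per kb in DHT, with an exact permutation p of 0.1, the smallest possible here.

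Of the SLC43 genes, SLC43A1 and SLC43A2 encode carriers that let large neutral amino acids pass down their gradient without exchange. SLC43A1 (chromosome 11, 57252004 to 57283192, minus strand) encodes LAT3, a leucine carrier first found through its high expression in prostate cancer. SLC43A1 had 67.8, 64.0 and 69.6 CPM in DHT+WBM, against 80.1, 75.3 and 77.6 CPM in DHT. The groups did not overlap, with a log2 fold change of -0.21 ± 0.05 (adjusted p = 2.01e-04, edgeR). SLC43A2, which encodes the related carrier LAT4, moved the other way. It rose to 59.4 ± 1.67 CPM in DHT+WBM, against 52.7 ± 2.62 CPM in DHT, a log2 fold change of 0.17 ± 0.05 (adjusted p = 0.00315, edgeR). The summed level of both was 40.1 ± 1.49 CPM per kb in DHT+WBM and 42.5 ± 1.54 CPM per kb in DHT, with an exact permutation p of 0.2. SLC43A3, a carrier of purine bases, had 0 to 2 counts per library.

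SLC38 genes encode sodium-coupled carriers of small neutral amino acids at the plasma membrane, and some act at the lysosome. SLC38A4 (chromosome 12, 47158544 to 47219780, minus strand) encodes SNAT4, known mainly from liver and placenta. SLC38A4 had 10.3, 9.81 and 11.4 CPM in DHT+WBM, against 19.9, 16.3 and 19.8 CPM in DHT. All DHT+WBM libraries lay below all DHT libraries, with a log2 fold change of -0.83 ± 0.09 (adjusted p = 1.21e-10, edgeR), 1.78-fold lower. SLC38A6 (chromosome 14, 61447832 to 61550451, plus strand), a less studied family member, had 20.8, 22.3 and 22.9 CPM in DHT+WBM, against 17.7, 17.5 and 16.8 CPM in DHT. Its libraries separated in the other direction, with a log2 fold change of 0.34 ± 0.07 (adjusted p = 6.04e-05, edgeR).

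SLC38A2 and SLC38A1, which encode the glutamine carriers SNAT2 and SNAT1, were the most abundant members by CPM in both groups. SLC38A2 had 738, 785 and 762 CPM in DHT+WBM, against 770, 751 and 706 CPM in DHT. The groups overlapped, and its log2 fold change of 0.04 ± 0.04 (adjusted p = 0.434, edgeR) had a 95% interval of -0.04 to 0.12. SLC38A1 had 587, 608 and 633 CPM in DHT+WBM, against 684, 685 and 660 CPM in DHT. These did not overlap, and SLC38A1 fell with a log2 fold change of -0.15 ± 0.04 (adjusted p = 8.81e-04, edgeR). SLC38A2 alone made up 28.7% of the summed level per kb of the 26 tested carriers in DHT+WBM and 25.3% in DHT.

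SLC38A9, a lysosomal protein that senses arginine for the growth kinase mTORC1, was at 27.8 ± 0.97 CPM in DHT+WBM and 27.8 ± 0.68 CPM in DHT. Its log2 fold change was 0.00 with a 95% interval of -0.12 to 0.13. SLC38A7, a lysosomal exporter of glutamine and asparagine, did not pass at -0.12 on the log2 scale, and neither did SLC38A10 at 0.03. SLC38A7 passed when DHT replicate 2 was left out, with -0.19 (adjusted p = 0.00997, edgeR). SLC38A3, a glutamine carrier of liver and brain, was rare, at 0.632 ± 0.09 CPM in DHT+WBM and 0.357 ± 0.15 CPM in DHT, and did not pass (log2 fold change 0.81 ± 0.38, adjusted p = 0.0676, edgeR). SLC38A5 had 0 to 3 counts per library and SLC38A8 and SLC38A11 had 0 or 1. The summed SLC38 level was 254 ± 6.07 CPM per kb in DHT+WBM and 257 ± 7.97 CPM per kb in DHT, with an exact permutation p of 0.4.

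**Figure D4:**
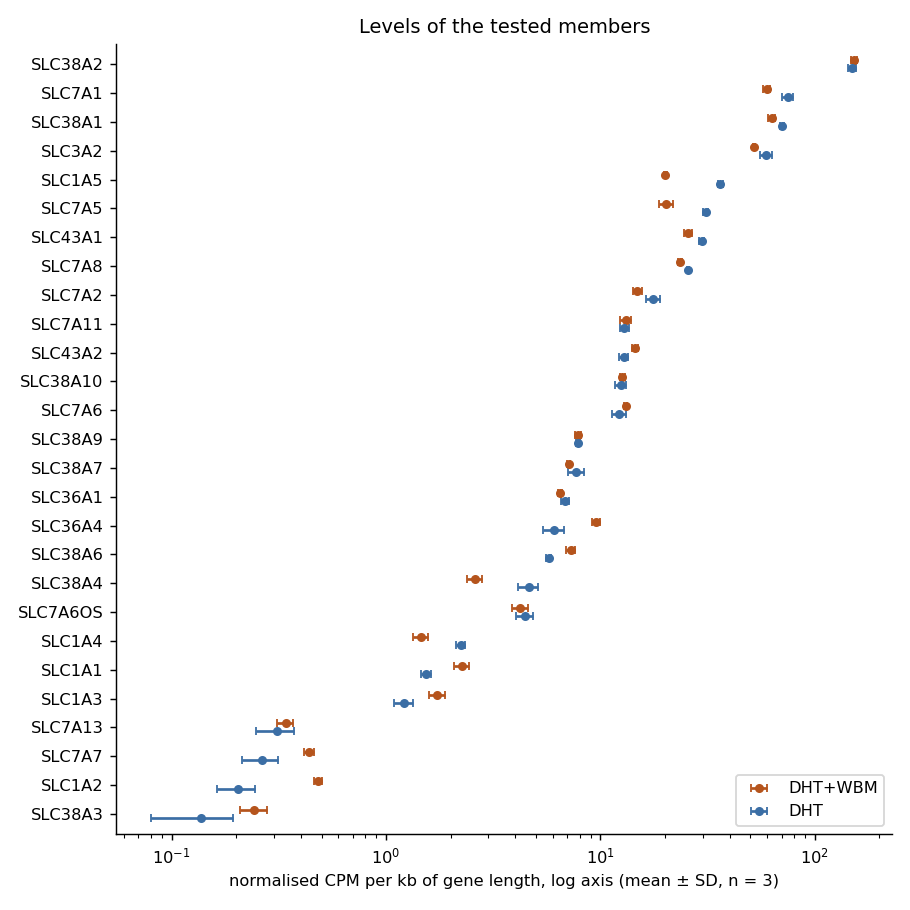
Level of the 27 tested members in normalised CPM per kb of gene length (x axis, log scale, mean ± SD over 3 libraries) in DHT+WBM (orange, upper point) and DHT (blue, lower point), ordered by the level in DHT. SLC38A2 stands highest, at 153 CPM per kb in DHT+WBM and 149 CPM per kb in DHT, and SLC1A5 takes the eighth place in DHT+WBM and the fifth in DHT.

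The SLC36 genes encode carriers of small neutral amino acids, several of them driven by protons. SLC36A4 (chromosome 11, 92880850 to 92931095, minus strand) encodes PAT4, a high-affinity carrier of proline and tryptophan. SLC36A4 had 22.1, 23.9 and 24.0 CPM in DHT+WBM, against 14.5, 16.8 and 13.6 CPM in DHT. All DHT+WBM libraries were above all DHT libraries, with a log2 fold change of 0.65 ± 0.08 (adjusted p = 2.18e-09, edgeR), 1.56-fold higher. SLC36A1, which encodes the lysosomal carrier PAT1, did not pass the test. It was at 40.3 ± 0.97 CPM in DHT+WBM and 42.5 ± 1.92 CPM in DHT, and the log2 fold change of -0.08 had a 95% interval of -0.19 to 0.03. SLC36A2 had 0 or 1 count per library, and SLC36A3 had none.

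All levels together, the 26 tested carriers summed to 533 ± 8.93 CPM per kb in DHT+WBM and 588 ± 18.5 CPM per kb in DHT. By level per kb in DHT+WBM the order was led by SLC38A2, SLC38A1, SLC7A1, SLC3A2 and SLC43A1. In DHT it was led by SLC38A2, SLC7A1, SLC38A1, SLC3A2 and SLC1A5. SLC38A1 and SLC7A1 were close neighbours in both, at 63.0 ± 2.36 and 59.6 ± 2.29 CPM per kb in DHT+WBM and at 70.0 ± 1.44 and 74.5 ± 4.52 CPM per kb in DHT. The differences were about the size of the spread between libraries. Within libraries, SLC38A1 stood above SLC7A1 in each DHT+WBM library and below it in each DHT library. SLC1A5 and SLC7A5 were at 20.04 ± 0.31 and 20.3 ± 1.43 CPM per kb in DHT+WBM, within their spread, whereas SLC1A5 stood above SLC7A5 in DHT, at 36.2 ± 0.97 against 30.9 ± 0.78 CPM per kb.

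Other genes of amino acid transport, sensing and use were taken from lists written with earlier results of these data known. Among amino acid carriers outside the families above, 4 of 24 tested genes rose, 7 fell and 13 did not pass, with a median log2 fold change of -0.07. That makes 45.8% called, against 58.2% of all tested genes, 29.2% higher and 29.0% lower. SFXN2, a mitochondrial carrier of the sideroflexin family, fell to 27.8 ± 0.36 CPM in DHT+WBM, against 47.5 ± 2.14 CPM in DHT, a log2 fold change of -0.77. SLC25A18, a mitochondrial glutamate carrier, fell by 1.05 on the log2 scale and SLC6A6, the taurine carrier, by 0.28. The genes that rose were SLC17A5, a lysosomal sialic acid carrier, with a log2 fold change of 0.33, the creatine carrier SLC6A8 with 0.17, SFXN3 with 0.25, and SLC6A20, a proline carrier near 1 CPM, with 0.79.

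Amino acid sensing upstream of mTORC1 had 14 of 39 tested genes higher, 8 lower and 17 that did not pass, with a median log2 fold change of 0.03. The 56.4% called stood near the 58.2% of all tested genes, of which 29.2% were higher and 29.0% lower. SLC38A9 is one of those 17. SESN3, a sestrin that restrains mTORC1, rose to 736 ± 39.6 CPM in DHT+WBM, against 418 ± 31.5 CPM in DHT, a log2 fold change of 0.82 ± 0.04 (adjusted p = 1.72e-18, edgeR). SH3BP4, a negative regulator of the Rag GTPases, rose with 0.50 and the Rag GTPase gene RRAGD with 0.41, while the sestrin gene SESN1 fell with -0.40. MTOR itself was at 143 CPM in DHT+WBM and 139 CPM in DHT and did not pass.

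In the synthesis and interconversion of non-essential amino acids, 13 of 27 tested genes fell, 5 rose and 9 did not pass, with a median log2 fold change of -0.22. The share called was 66.7%, against 58.2% of all tested genes, 29.2% higher and 29.0% lower. ARG2, a mitochondrial arginase that splits arginine, fell to 38.7 ± 3.04 CPM in DHT+WBM, against 105 ± 2.09 CPM in DHT, a log2 fold change of -1.43 ± 0.05 (adjusted p = 1.60e-24, edgeR). GLUD1, glutamate dehydrogenase, fell with -0.82. The genes that rose were the argininosuccinate synthase gene ASS1 with 0.67, the glutamine synthetase gene GLUL with 0.47, the glutaminase gene GLS2 with 0.45, the ornithine aminotransferase gene OAT with 0.23 and the asparagine synthetase gene ASNS with 0.23. GLUL was at 709 ± 8.998 CPM in DHT+WBM and 513 ± 22.1 CPM in DHT.

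Breakdown of leucine, isoleucine and valine had 9 of 20 tested genes lower, 4 higher and 7 that did not pass, with a median log2 fold change of -0.02. Calls made up 65%, against 58.2% of all tested genes, 29.2% higher and 29.0% lower. The subunits of methylcrotonyl-CoA carboxylase, an enzyme of leucine breakdown, moved apart. MCCC2 fell to 157 ± 1.30 CPM in DHT+WBM, against 388 ± 8.04 CPM in DHT (log2 fold change -1.30, adjusted p = 7.06e-27, edgeR), whereas MCCC1 rose to 225 ± 3.37 CPM in DHT+WBM, against 154 ± 5.97 CPM in DHT (0.54, adjusted p = 1.08e-14, edgeR). ALDH6A1 of valine breakdown and DBT, a subunit of the branched-chain dehydrogenase, fell with -0.77 and -0.48. ACADSB, an acyl-CoA dehydrogenase of isoleucine breakdown, also rose with 0.30, and so did BCKDK, the kinase that inhibits the branched-chain dehydrogenase, with 0.25.

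In glutathione synthesis and cystine use, 9 of 15 tested genes rose, 3 fell and 3 did not pass, with a median log2 fold change of 0.27. Here 80% were called, against 58.2% of all tested genes, 29.2% higher and 29.0% lower. Besides GCLM, the thioredoxin reductase gene TXNRD1 rose to 1507 ± 18.5 CPM in DHT+WBM, against 641 ± 23.9 CPM in DHT, a log2 fold change of 1.23, and the lipid peroxidase gene GPX4 rose with 0.33. GGCT, GGT1 and GCLC were the genes that fell, with -0.34, -0.35 and -0.16. Of 23 tested regulators and binding partners of these transporters, 10 rose, 4 fell and 9 did not pass, with a median log2 fold change of 0.06. Their share called, 60.9%, was near that of all tested genes. ATF4, the transcription factor of the amino acid response, fell to 140 ± 1.72 CPM in DHT+WBM, against 181 ± 5.24 CPM in DHT, a log2 fold change of -0.37 ± 0.04 (adjusted p = 2.54e-10, edgeR). NEDD4L, a ubiquitin ligase that acts on membrane carriers, fell with -0.75, and the kinase genes EIF2AK3 and EIF2AK2 fell with -0.39 and -0.30. ATF3 rose with 0.88, TFE3, a factor of lysosomal genes, with 0.58, and LAPTM4B, a lysosomal protein known to bind SLC7A5 with SLC3A2, with 0.52.

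**Figure D5:**
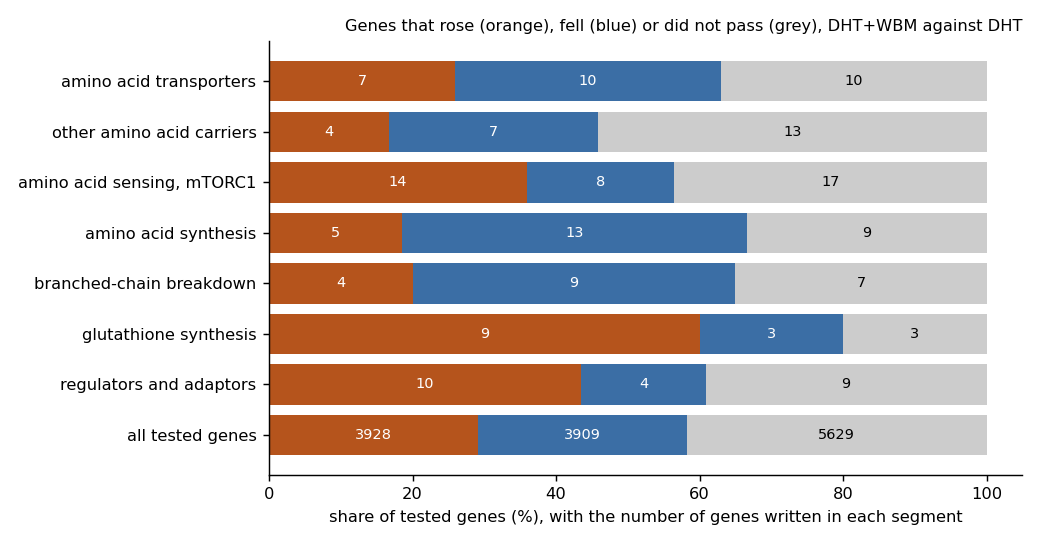
Share (x axis, %) of tested genes that rose (orange), fell (blue) or did not pass the test (grey) in DHT+WBM against DHT, with the number of genes in each segment, for the amino acid transporters, 6 related lists and all tested genes. The transporters have 7 higher, 10 lower and 10 that did not pass, and all tested genes have 3928, 3909 and 5629.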

How the data were processed

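RNA of 6 LNCaP libraries was sequenced. The deposited table holds raw, unnormalised read counts by gene beside position and length in kb. Levels in CPM per kb use that length. Per the submitters' processing notes, bcl2fastq 2.18.0.12, STAR 2.6.0, HTSeq 0.6.0, edgeR 3.28.1 and the build hg19 were involved, with no role given. Annotation and strand setting are not named there, so reads of a gene and of an overlapping one on the other strand may be mixed.

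Groups came from the sample titles. The edgeR package (version 4.0.16, R 4.3.3) filtered genes with filterByExpr (minimum count 10, minimum total 15), scaled library sizes by TMM and ran its two-sided quasi-likelihood F-test of DHT+WBM over DHT, with Benjamini-Hochberg adjustment over all tested genes. SE is the log2 fold change divided by the root of its F statistic. CPM are counts scaled to the normalised library size, and means are given ± SD over 3 libraries. DESeq2 1.42.0 and limma 3.58.1 (voom) served as alternatives.

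Members and lists were chosen with earlier results of these data known. Values per library are given for members past the test with at least 5 CPM in one group and an absolute log2 fold change of at least 0.3, and for SLC7A11, SLC7A5, SLC3A2 and SLC43A1; those of SLC38A1 and SLC38A2, and the other shares given per library, were added after their values were seen. From each list up to 4 genes with the smallest adjusted p and every gene of a count of 5 or fewer were named. Some genes that this rule would name are not reported here. MTOR was added after its values were seen. Promoter windows were matched by symbol for 32 of the 44 members.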

Additional observations from a re-analysis of the deposited data

How the results depend on the processing

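The count of members called stayed between 6 and 9 higher and between 9 and 11 lower under RLE, upper-quartile and library-total scaling, no low-count filter, a filter of 1 CPM in 3 libraries, DESeq2, limma-voom, an adjusted p of 0.01, members that overlap no other gene, and each library left out. Over all tested genes, 3928 were higher and 3909 lower as reported, against 4426 and 3403 under upper-quartile factors, 4675 and 3200 under library totals, and 3262 and 3393 by DESeq2, which called 6 members higher and 10 lower. Same-numbered libraries did not deviate together, with correlations of 0.050, 0.037 and 0.019, so the replicate numbers were not taken as pairs. With the replicate block, 8 members were higher and 10 lower, and 4079 and 4030 of all tested genes. SLC7A6 then passed, at 0.10 (adjusted p = 0.0383, edgeR).

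Over members and settings, 357 values kept direction and side of the threshold, 8 gained a call, 2 lost one and 9 changed sign. The sign changes were in members near 0 that did not pass. SLC38A9 was at -0.0078 on the log2 scale without a filter and between -0.026 and 0.025 with a library left out. With a library left out, SLC7A11 was between -0.022 and 0.058 and SLC38A10 between -0.020 and 0.053. SLC7A6 also passed without DHT replicate 1 or 2 and under upper-quartile and library-total scaling, and SLC38A3 passed by limma-voom and without DHT replicate 1. The other carriers had 7 genes higher, not 4, under upper-quartile factors and under library totals, the scalings that also gave more higher calls over all genes, and 4 lower, not 7, at an adjusted p under 0.01. Under library totals the SLC1 level ratio was 0.648. The SLC38 ratio was 1.02 under library totals and 1.01 under upper-quartile factors, not 0.985. For the level of SLC3A2 over its light chains, the ratio of DHT+WBM to DHT was 1.02 as reported. That ratio was 0.987 without DHT replicate 2 and 0.984 without division by length. Without the member of the highest mean level per kb over the 6 libraries, the ratio of DHT+WBM to DHT turned in 3 families, to 1.14 from 0.628 for SLC1 (without SLC1A5), to 0.948 from 1.24 for SLC36 (without SLC36A4) and to 1.13 from 0.944 for SLC43 (without SLC43A1). It kept its direction in SLC38, at 0.929 against 0.985 (without SLC38A2), and in SLC7, at 0.857 against 0.833 (without SLC7A1). Members under about 1 CPM, such as SLC38A3 and SLC7A13, have wide errors at this depth.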
